A study of Mus musculus with 18 samples.

Results

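The 78 genes described here carry the symbols of mitochondrial ribosomal proteins. They were taken by symbol, Mrpl or Mrps followed by a digit, without pseudogenes, from the 15137 genes of the deposited expression table. Of them, 49 carry an Mrpl symbol (named for the large subunit) and 29 an Mrps symbol (named for the small subunit). The symbol does not always give the place of the protein, as for Mrps30, Mrps18a and Mrps36 below. All 78 reached the minimum level and were among the 10877 genes tested.

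The libraries were made from naive CD4+ T cells sorted from mouse spleen by surface markers, on the C57BL/6J background. Mice were either controls or Creld1 conditional knockouts (cKO) with Cre under CD4 control, which also acts in other T cells that have passed through a CD4-expressing stage. For each genotype, cells were profiled fresh, after 8 h of culture without stimulation, or after 8 h of culture with anti-CD3 and anti-CD28 antibodies at 1 µg/ml, which engage the T cell receptor and its co-stimulatory receptor. Each of the 6 groups had 3 libraries. The labels give no Cre status or floxed allele for the controls, and no label says that the libraries of a group came from separate mice, so the p-values below reflect library-to-library spread alone, possibly of technical origin.

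Mitochondria hold their own ribosome, which translates the few messages of the mitochondrial genome, all of them for membrane subunits of oxidative phosphorylation. Its RNA is made inside the organelle, while its proteins are encoded in the nucleus, translated in the cytosol and imported. Some of these proteins descend from bacterial ribosomal proteins and others are found only in mitochondria. T cells enlarge their mitochondrial mass and translation as they leave the resting state.

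Several facts bear on the libraries as a whole. The deposited values are normalized expression on a log2 scale, and read depth per library is unknown. Creld1 itself ranged from 4.33 to 5.40 in the 9 control libraries and from 3.70 to 4.62 in the 9 cKO libraries, so the genotypes overlapped. Within the unstimulated condition the 3 cKO values (3.82 to 4.33) lay below the 3 control values (4.81 to 5.40), a log2 difference of -0.999 ± 0.232 (SE) with an adjusted p of 0.103 in limma. Markers of naive CD4+ T cells such as Cd4, Cd3e and Il7r were high in every group. Of markers of other cells, 2 of 6 for CD8+ T and NK cells reached the minimum level (Cd8b1 at a mean of 6.41 and Prf1 at 6.32), 1 of 4 for myeloid cells (Itgam at 4.47), 1 of 4 for B cells (Cd79a at 4.29) and 0 of 3 for red cells. Libraries also differed in how expression related to transcript GC content: the slope of a gene's deviation on its GC content (log2 per SD of GC) ranged from -0.31 to 0.25, and the 3 fresh cKO libraries alone spanned -0.31 to 0.16.

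The promoters of 6 members are printed first because these genes carry the main results: Mrps30, Mrps15, Mrpl3 and Mrpl9 were lower after culture in both genotypes, Mrpl24 was the member called higher after culture in cKO cells, and Mrpl44 was called higher after stimulated culture in both genotypes. Each stretch runs from 120 bases before to 30 bases after the RefSeq transcription start (GRCm38.p6), 5′ to 3′ on the gene's strand. Capitals mark matches, on either strand, to the NRF1 motif (the longer run of capitals in Mrpl9), CCGGAAG (ETS factors), ATGGCGGC (YY1) or CACGTG (E-box).
Mrps30 (chr13:118387223-118387372, minus strand): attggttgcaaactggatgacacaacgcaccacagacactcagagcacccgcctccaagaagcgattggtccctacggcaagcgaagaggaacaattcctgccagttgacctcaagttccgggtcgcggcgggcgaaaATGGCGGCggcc
Mrps15 (chr4:126046808-126046957, plus strand): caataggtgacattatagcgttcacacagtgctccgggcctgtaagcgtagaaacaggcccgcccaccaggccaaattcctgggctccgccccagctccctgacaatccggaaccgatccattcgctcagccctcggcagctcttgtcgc
Mrpl3 (chr9:105053148-105053297, plus strand): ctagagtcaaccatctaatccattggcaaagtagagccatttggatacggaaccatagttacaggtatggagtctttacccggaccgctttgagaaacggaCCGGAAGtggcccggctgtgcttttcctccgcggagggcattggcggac
Mrpl9 (chr3:94443216-94443365, plus strand): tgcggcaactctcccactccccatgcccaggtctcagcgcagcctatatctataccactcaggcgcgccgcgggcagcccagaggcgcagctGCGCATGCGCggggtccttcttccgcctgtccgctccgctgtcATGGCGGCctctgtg
Mrpl24 (chr3:87919424-87919573, plus strand): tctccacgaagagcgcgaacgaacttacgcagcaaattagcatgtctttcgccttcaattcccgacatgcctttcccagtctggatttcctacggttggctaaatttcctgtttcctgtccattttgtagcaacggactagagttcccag
Mrpl44 (chr1:79775898-79776047, plus strand): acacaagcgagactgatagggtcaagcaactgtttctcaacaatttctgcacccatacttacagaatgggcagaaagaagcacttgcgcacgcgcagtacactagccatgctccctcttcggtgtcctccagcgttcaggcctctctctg
Mrps30 and Mrpl9 hold the YY1 letters just past the start, Mrpl9 also holds the NRF1 letters, and Mrpl3 holds the ETS letters.

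A promoter of 300 bases (250 before and 50 after the start) was at hand for 69 of the 78 members. The ETS letters stood in 25 of these (36.23%), against 20.26% of the promoters of tested genes and 9.12% of all 27025 promoters. The YY1 letters stood in 12 (17.39%), against 5.69% and 2.38%. NRF1 letters were found in 3 (4.35%), against 2.36% and 0.98%, and the E-box in 5 (7.25%), against 10.41% and 7.24%. A match is a description of the letters and not a bound site. Among members called lower after culture, 3 of 8 with a promoter held the ETS letters, 2 the YY1 letters, 1 the NRF1 letters and 0 the E-box. Among those called higher, 3 of 7 held the ETS letters and 0 any of the other motifs. No test was made of these counts.

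Levels of the members differed widely in fresh control cells. On the log2 scale per kilobase of the longest protein-coding transcript, they ran from 3.93 to 10.22 with a median of 6.46. Mrpl33, a small protein of the large subunit, was highest at 10.22 ± 0.03 (SD, n = 3), followed by Mrpl24 at 9.66 ± 0.09, a protein near the exit of the peptide tunnel. The third was Mrpl42 at 8.67 ± 0.05, then Mrpl9 at 8.36 ± 0.03 and Mrps21 at 8.19 ± 0.22. The last pair in this order did not differ beyond their spread. At the other end stood Mrpl17, Mrpl57, Mrpl47, Mrpl1 and Mrps25, from 3.93 to 4.99. With the median transcript length in place of the longest, 3 of the highest 5 and 4 of the lowest 5 stayed in those ranks, and Mrpl17 moved to rank 26.

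The members as a whole took a narrow share of expression. They made up between 0.178% and 0.209% of the summed linear values in each library. The range of a member's 6 group means had a median of 0.39 on the log2 scale, beside a median SD of 0.14 between libraries within a group. It was under 0.25 in 15 members and over 0.75 in 10. Mrps2, a small-subunit protein, was the steadiest with a range of 0.12, and Mrps36, a member by its symbol that is known as a part of the 2-oxoglutarate dehydrogenase complex, had 0.14. Mrpl34, Mrpl14 and Mrpl12 were the most variable at 1.04, 1.01 and 0.96. Unstimulated cKO cells held the lowest group mean for 31 of the 78 members, and unstimulated control cells the highest for 26.

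Culture for 8 h without stimulation was compared with fresh cells to ask how the ex vivo period itself moved these genes. A small set of members moved in each genotype: 6 rose and 5 fell in control cells, and 1 rose and 9 fell in cKO cells. The shares were 7.69% and 6.41% of members in control cells, against 14.9% and 14.1% of all tested genes, and 1.28% and 11.5% in cKO cells, against 10.7% and 11.4%. Members were thus called no more often than tested genes at large, apart from the falls in cKO cells, whose share was near the background. Libraries did not overlap for 10 higher and 15 lower members in control cells (background 25.8% and 22.9%) and for 1 and 16 in cKO cells (background 15.8% and 16.1%). The median difference over the members was 0.06 in control cells, where that of all tested genes was 0.04, and -0.12 in cKO cells, where it was -0.02.

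Mrps30, Mrps15, Mrpl9 and Mrpl3 fell in both genotypes, which is 80.0% of the members called lower in control cells and 44.4% of those called lower in cKO cells. Mrps30, which sits in the large subunit in spite of its name, stood at 8.50, 8.22 and 8.42 in fresh control libraries and at 7.69, 7.64 and 7.65 after culture. In cKO cells it stood at 8.53, 8.74 and 8.13 fresh and at 7.79, 7.85 and 8.05 after culture. The groups did not overlap in either genotype, and the falls were -0.72 ± 0.13 (SE; adjusted p 0.000767, limma) and -0.57 ± 0.13 (adjusted p 0.00481). Mrps30 shares 623 exon bases with B430218F22Rik on the other strand, and the library kit does not mark strand.

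Mrps15, a small-subunit protein with a bacterial counterpart that binds the ribosomal RNA, read 7.55, 7.42 and 7.36 in fresh control libraries and 7.11, 6.98 and 7.15 after culture. In cKO cells the values were 7.71, 7.77 and 7.60 fresh and 7.25, 7.19 and 7.11 after culture. Every cultured library lay below every fresh one of its genotype. The differences were -0.36 ± 0.09 in control cells (adjusted p 0.00599, limma) and -0.51 ± 0.09 in cKO cells (adjusted p 0.000579).

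Mrpl9 and Mrpl3 are both large-subunit proteins of bacterial descent, Mrpl3 reaching towards the peptidyl transferase centre. Mrpl9 went from a mean of 9.09 in fresh control libraries to 8.84 after culture, a difference of -0.25 ± 0.08 (adjusted p 0.0287, limma), and by -0.42 ± 0.08 in cKO cells (adjusted p 0.00154). Mrpl3 went from a mean of 8.41 to 8.15 in control cells, -0.26 ± 0.09 (adjusted p 0.0341), and by -0.35 ± 0.09 in cKO cells (adjusted p 0.00877). For both, fresh and cultured libraries did not overlap. In control cells the Mrpl9 call was lost without any 1 of control fresh replicates 1, 2 and 3 or control unstimulated replicates 1 and 2. The Mrpl3 call was lost there without control fresh replicate 1 or 3 or any 1 of the 3 control unstimulated libraries. Both control calls were also lost with only the groups compared, and that of Mrpl3 with the replicate block and GC slope as covariates. Mrpl9 shares 157 exon bases with Oaz3 on the other strand, and Mrpl3 shares 248 with Gm38077 on the same strand.

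**Figure D1:**
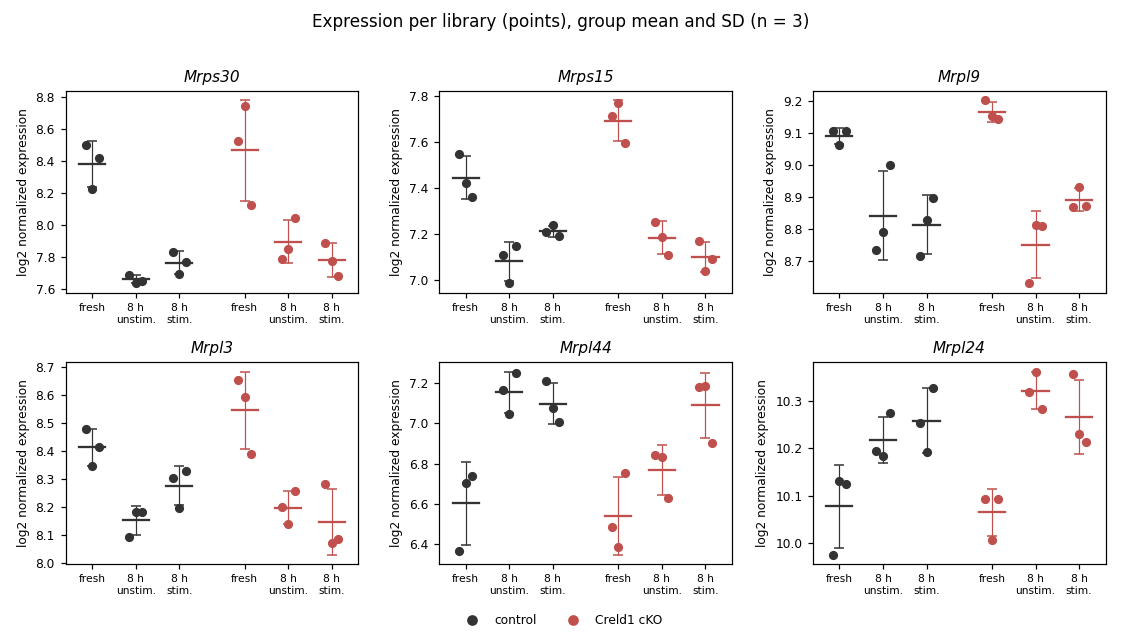
Log2 normalized expression of 6 members in each of the 18 libraries (points), with the group mean (line) and SD (bar, n = 3), by condition for control (dark) and Creld1 cKO (red) cells. Mrps30, Mrps15, Mrpl9 and Mrpl3 lie lower in both cultured conditions than in fresh cells of the same genotype, with no overlap after unstimulated culture.

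In control cells 6 members rose with unstimulated culture, all of them Mrpl genes. Mrpl34, a short large-subunit protein of bacterial type, read 4.60, 4.86 and 4.93 fresh and 5.42, 5.61 and 6.12 after culture, a rise of 0.92 ± 0.29 (adjusted p 0.0266, limma). Mrpl14, which in the assembling large subunit binds the factor Malsu1, read 4.73, 5.44 and 5.45 fresh and 5.86, 6.17 and 6.22 after culture, a rise of 0.88 ± 0.31 (adjusted p 0.0468). The Mrpl14 call was lost under 15 of 30 alternatives, 13 of them single libraries left out, with an adjusted p of up to 0.202. Mrpl41, Mrpl51 and Mrpl43, which have no bacterial counterpart, rose by 0.63 ± 0.20, 0.57 ± 0.14 and 0.57 ± 0.20. Mrpl44, which carries a ribonuclease III type domain, rose by 0.55 ± 0.13 (adjusted p 0.00579). For each of these genes fresh and cultured control libraries did not overlap. Mrpl44 shares 126 exon bases with Wdfy1 on the other strand, which rose by 0.76 ± 0.09 in the same comparison. Mrpl14 shares 106 with Tmem63b on the other strand, which rose by 0.43 ± 0.14 (adjusted p 0.0346, limma). Mrpl43 shares 507 with Twnk on the other strand, which differed by 0.04 ± 0.10.

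Calls of this kind rested on few libraries. Without control fresh replicate 1 or 2, 3 members rose, and without control unstimulated replicate 2 or 3, 2 rose. For the falls in control cells, 3 were called without control fresh replicate 1 or 3 or control unstimulated replicate 1 or 2, and 8 without cKO fresh replicate 3. The Mrpl34 call was lost without control fresh replicate 1 or 2 or control unstimulated replicate 2 or 3, and the Mrpl41 call without control fresh replicate 1 or control unstimulated replicate 2 or 3. Mrpl43 was lost under 7 alternatives and went to 0.38 without control unstimulated replicate 3. Mrpl51, Mrps30, Mrps15 and Mrpl19 were called in control cells with any 1 of the 18 libraries left out. Mrpl19, a large-subunit protein of bacterial type, fell by -0.67 ± 0.13 (adjusted p 0.00109, limma). It shares 1962 exon bases with Gcfc2 on the other strand, which differed by -0.07 ± 0.18 in the same comparison.

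In cKO cells the largest falls were in Mrps28, Mrpl52 and Mrpl57. Mrps28, a small-subunit protein, read 5.40, 5.10 and 5.87 fresh and 4.67, 4.62 and 4.76 after culture, a difference of -0.77 ± 0.17 (adjusted p 0.00390, limma). Mrpl52, of the central protuberance, fell by -0.61 ± 0.14 and Mrpl57, without a bacterial counterpart, by -0.59 ± 0.16. Mrps6 and Mrps9 fell by -0.43 ± 0.11 and -0.35 ± 0.12. Mrpl24 was the one member called higher, by 0.26 ± 0.07 (adjusted p 0.0114), and its exons share 594 bases with Rrnad1 on the other strand. The Mrpl57 call was lost with library weights and without cKO unstimulated replicate 2. The Mrps28 call was lost with library weights and with only the groups compared. With only the groups compared, the cKO calls of Mrpl24 and Mrps30 were also lost (adjusted p 0.111 and 0.0956, limma).

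The difference between genotypes in the culture response was tested as an interaction. None of the 78 members passed (0 called in limma, 9 at an unadjusted p below 0.05, smallest adjusted p 0.843), so members called in 1 genotype were not shown to respond differently in the other. Mrpl51 came nearest, at -0.74 ± 0.20 (unadjusted p 0.00230). The background of called genes was 0 of the 10877 genes in each direction. The share of all tested genes at an unadjusted p below 0.05 is not given here.

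**Figure D2:**
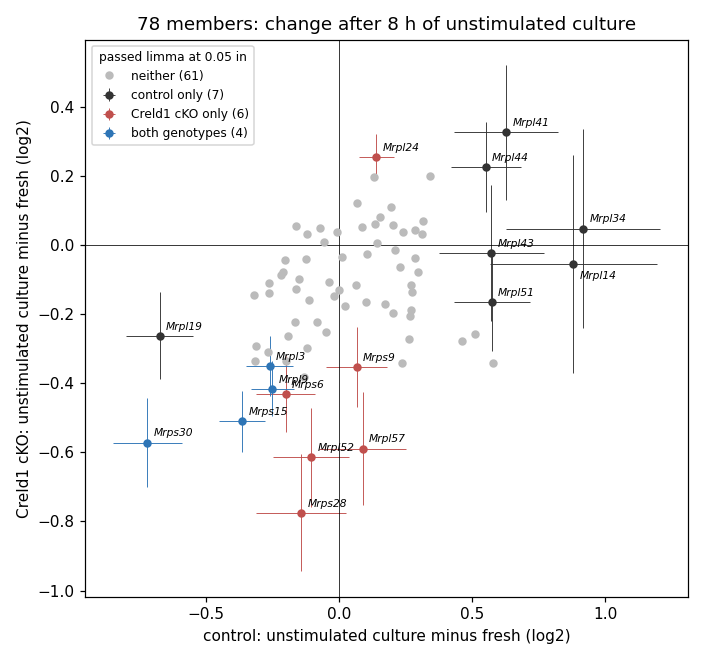
Log2 change after 8 h of unstimulated culture for the 78 members, in control cells (x axis) and Creld1 cKO cells (y axis), with SE bars for members called by limma. The 4 members called in both genotypes lie at the lower left, and 61 members were called in neither.

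Markers of cell types and T cell states moved with culture, some lower and some higher. The 4 regulatory T cell markers summed to between 787 and 840.0 on the linear scale in fresh control libraries and to between 416 and 455 after unstimulated culture, and to between 757 and 879 and between 474 and 507 in cKO cells. Within this list Ctla4 stood at a mean of 9.12 fresh and 7.88 after culture in control cells, and Foxp3 at 6.02 and 5.83. The 4 memory markers summed to between 721 and 851 fresh and between 533 and 605 after culture in control cells. In cKO cells they summed to between 642 and 896 fresh and between 629.6 and 674 after culture, so those groups overlapped. Of these 4, Cd44 stood at a mean of 8.39 fresh and 7.04 after culture in control cells, while Itgb1 stood at 8.73 in both. The 6 CD8+ T and NK cell markers summed to between 189.97 and 272 fresh and between 157 and 188.5 after culture in control cells, and to between 175 and 272 and between 126 and 165 in cKO cells. Of these 6, Prf1 stood at a mean of 7.10 fresh and 6.20 after culture in control cells, and 6.87 and 5.77 in cKO cells. Cd8b1 moved less, at 6.56 and 6.50 in control and 6.49 and 6.33 in cKO cells. The 4 myeloid markers summed to between 35.7 and 46.2 fresh and between 25.1 and 27.2 after culture in control cells, and to between 38.2 and 52.1 and between 25.7 and 32.1 in cKO cells. Their part in the culture results was not tested. In bulk libraries, fewer cells of a type and less RNA per cell cannot be told apart.

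Factors that act with the mitochondrial ribosome moved in both directions with culture. Of 17 translation factors, 2 rose and 3 fell in control cells, and 2 rose and 2 fell in cKO cells. These are 11.8% and 17.6% of the list in control cells, beside 14.9% and 14.1% of all tested genes, and 11.8% each way in cKO cells, beside 10.7% and 11.4%, so the shares were near the background. Gfm1, the elongation factor that moves the ribosome along the message, fell by -0.49 ± 0.09 and -0.28 ± 0.09, while Gfm2, its relative that recycles ribosomes, rose by 0.34 ± 0.08 and 0.32 ± 0.08 (control and cKO). The initiation factor Mtif3 rose by 0.41 ± 0.12 and 0.40 ± 0.12. Metap1d, which removes the first methionine of mitochondrial proteins, read 8.99, 8.93 and 8.94 in fresh control libraries and 8.34, 8.29 and 8.41 after culture, and fell by -0.61 ± 0.07 and -0.67 ± 0.07 in the 2 genotypes.

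Of 26 assembly factors tested, 6 rose and 2 fell in control cells, and 4 rose and 2 fell in cKO cells. The shares were 23.1% and 7.69% in control cells and 15.4% and 7.69% in cKO cells, beside the same background. Ngrn (0.65 ± 0.11 and 0.44 ± 0.11), which acts with the large-subunit RNA, and the RNA methyltransferase Mrm1 (0.83 ± 0.16 and 0.46 ± 0.16) rose in both genotypes. C1qbp, a matrix protein needed for mitochondrial translation, fell in both (-0.42 ± 0.10 and -0.43 ± 0.10). Among 13 mitochondrially encoded messages, 2 fell in control cells (mt-Nd1 and mt-Nd2, subunits of complex I) and 0 passed in cKO cells, where 2 had an unadjusted p below 0.05. The 79 cytosolic ribosomal protein genes had 18 falls in control cells and 19 in cKO cells and 0 rises in either. The falls were 22.8% and 24.1% of that list, beside 14.1% and 11.4% of all tested genes.

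Stimulated culture was also set against fresh cells; this comparison uses the same fresh libraries. In control cells 1 member rose and 3 fell (background 9.58% and 9.26%), and in cKO cells 4 rose and 6 fell (background 14.5% and 15.7%). Libraries did not overlap for 4 higher and 7 lower members in control cells (background 17.3% and 16.9%) and for 9 and 7 in cKO cells (background 15.7% and 16.9%). Mrps30 fell by -0.62 ± 0.13 and -0.69 ± 0.13 and Mrpl9 by -0.28 ± 0.08 in each genotype. The Mrpl9 call was lost in control cells when only the groups compared were fitted and without control fresh replicate 1 or 3 or control stimulated replicate 1 or 2. In cKO cells it was lost with library weights, with only the groups compared, and without cKO fresh replicate 1 or cKO stimulated replicate 3. Mrpl44 read 6.37, 6.70 and 6.74 in fresh control libraries and 7.21, 7.08 and 7.01 after stimulated culture, and rose by 0.49 ± 0.13 (adjusted p 0.0143, limma), and by 0.55 ± 0.13 in cKO cells (adjusted p 0.00622). Mrps15 fell in cKO cells by -0.60 ± 0.09 (adjusted p 0.000156). Its control value was -0.23 ± 0.09. Mrpl42 fell in control cells by -0.33 ± 0.11, and its call was lost under 14 of 30 alternatives. The control rise of Mrpl44 was lost with only the groups compared and without control fresh replicate 1 or control stimulated replicate 1. Its cKO rise was lost with only the groups compared (adjusted p 0.0815, limma). Wdfy1, which shares exon bases with Mrpl44 on the other strand, rose by 0.60 ± 0.09 in control and 0.68 ± 0.09 in cKO cells. In cKO cells the counts moved most with cKO fresh replicate 3, without which 22 members rose and 10 fell.

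Stimulation against unstimulated culture was the test of anti-CD3 and anti-CD28 stimulation combined. No member passed in either genotype, with 0 called in control and 0 in cKO cells in limma. The background of called genes was 0.313% higher and 0.0368% lower in control cells, and 0.276% and 0.00919% in cKO cells. At an unadjusted p below 0.05 in limma stood 3 members in control cells and 20 in cKO cells, all 20 higher. The share of all tested genes at that unadjusted level is not given here, so these counts cannot be set against that background. In cKO cells, 36 members were higher in every stimulated than in every unstimulated library and 1, Mrpl39, was lower in every one (background 23.9% and 18.4%), with a median difference of 0.23 beside 0.01 for all tested genes. In control cells 11 were higher and 4 lower without overlap (background 10.2% and 10.3%), with a median of -0.03 beside -0.02. Mrpl16, a core protein of the large subunit, had the smallest p in cKO cells, with 5.70, 5.83 and 5.99 unstimulated and 6.30, 6.30 and 6.18 stimulated, a difference of 0.42 ± 0.11 (adjusted p 0.129). Mrpl51 and Mrps18a, a large-subunit protein among the Mrps18 paralogs, were lower in every stimulated control library and higher in every stimulated cKO library.

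Between genotypes in unstimulated culture, no member passed (0 called in limma, smallest adjusted p 0.103, background of called genes 0% in each direction). At an unadjusted p below 0.05 in limma stood 29 members, 28 of them lower in cKO cells. The share of all tested genes at that unadjusted level is not given here, so the 29 cannot be set against the 0%. The 3 cKO libraries lay below the 3 control libraries for 30 members and above them for 11, against 28.6% and 23.5% of tested genes. The median over the members was -0.18 and that of all tested genes -0.01. Mrpl14 had the largest difference, with 5.86, 6.17 and 6.22 in control and 5.09, 5.24 and 4.89 in cKO libraries, -1.01 ± 0.31. Mrpl34 differed by -0.99 ± 0.29, Mrpl12 by -0.96 ± 0.30 and Mrpl4 by -0.91 ± 0.32. Mrpl57 had the smallest p, with 5.23, 5.72 and 6.14 in control and 5.14, 5.06 and 5.08 in cKO libraries, -0.60 ± 0.16. That difference was -0.38 without control unstimulated replicate 3. Mrpl19 stood out on the other side at 0.39 ± 0.13. Gcfc2, which shares 1962 exon bases with Mrpl19 on the other strand, differed by 0.47 ± 0.18 in the same comparison. Its part in the Mrpl19 value was not tested. Without cKO fresh replicate 3, a library of neither group but of the shared spread, 22 members were called lower and 1 higher.

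The stalk is the flexible arm that draws elongation factors to the ribosome, and it is described as a group. Mrpl12, the stalk protein itself, read 6.87, 7.38 and 7.48 in unstimulated control libraries, 6.35, 6.55 and 5.94 in unstimulated cKO libraries, and 6.93, 7.33 and 7.39 in stimulated cKO libraries. Mrpl10, its anchor, and Mrpl53 and Mrpl54 followed the same order of groups, while Mrpl11 overlapped between the unstimulated groups. All 5 had a lower mean in unstimulated cKO than in control cells, with a median of -0.57 (4 without overlap, beside 28.6% of tested genes), and all 5 were higher in every stimulated than in every unstimulated cKO library, with a median of 0.51 (beside 23.9% of tested genes and 36 of the 78 members). Mrpl53 gives both medians, and its exons share 695 bases, its whole longest transcript, with Gm42688 on the same strand, so its level is uncertain. With the GC slope of the libraries as a covariate, Mrpl12 went from -0.96 to -0.17 between genotypes and from 0.94 to 0.32 with stimulation, and Mrpl54 from -0.71 to -0.02 and from 0.63 to 0.09. In both comparisons the slope, computed from the same expression values, did not overlap between the groups, so slope and group cannot be told apart. These 2 comparisons share the unstimulated cKO libraries. None of the 5 passed the test in either, with 4 and 3 below an unadjusted p of 0.05 (limma).

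**Figure D3:**
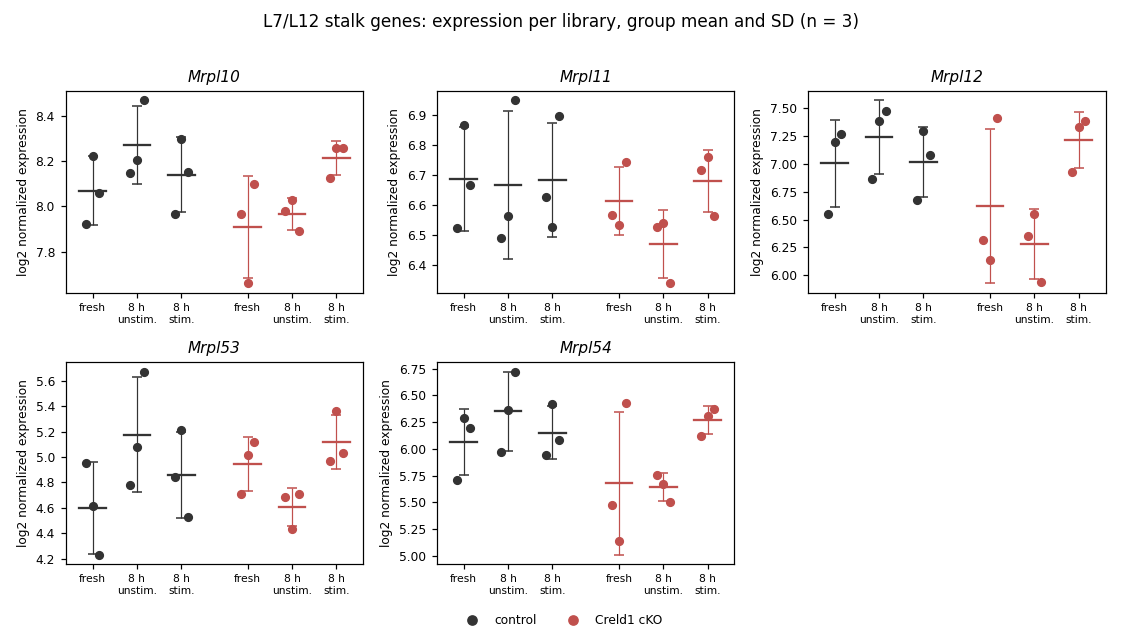
Log2 normalized expression of the 5 stalk genes in each of the 18 libraries (points), with group mean (line) and SD (bar, n = 3). Mrpl12 ranges from 5.94 to 6.55 in the unstimulated Creld1 cKO libraries, below all 3 unstimulated control libraries.

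Whether stimulation acted differently in the 2 genotypes was tested as an interaction, which 0 of 78 members passed in limma (smallest adjusted p 0.166). The background of called genes was 0% higher and 0.00919% lower. At an unadjusted p below 0.05 in limma stood 25 members, 23 of them higher. Mrpl51 had the smallest p, at 0.75 ± 0.20, and Mrpl34 stood at 1.21 ± 0.41. In fresh cells and in stimulated cells the genotypes had 0 members called, with 1 and 0 at an unadjusted p below 0.05. The background of called genes was 0.00919% higher and 0% lower in fresh cells and 0% each way in stimulated cells. Genotypes did not overlap for 4 higher and 1 lower members in fresh cells (background 2.45% and 1.86%) and for 2 and 2 in stimulated cells (background 3.05% and 3.14%). The fresh-cell member was Mrps15, higher in cKO cells by 0.25 ± 0.09 (adjusted p 0.790). Averaged over the 3 conditions, 0 passed (background of called genes 0.0184% higher and 0% lower). There 5 had an unadjusted p below 0.05, all lower, Mrpl38 of the central protuberance at -0.47 ± 0.19. Shares of all tested genes at an unadjusted p below 0.05 are not given here for any of these comparisons.

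In several comparisons the differences of the members ran with the GC content of their transcripts. Between unstimulated genotypes, the 26 members of highest GC content (52.6% or more) had a median difference of -0.54 and 23 of them lay below 0, while the 26 of lowest GC content (47.4% or less) had a median of 0.05. For stimulation of cKO cells the medians were 0.41 and 0.02. Pearson's r over the 78 genes, which share libraries, was -0.59 and 0.58 in these comparisons and is given as a description. It was 0.42 for culture of control cells, 0.07 for culture of cKO cells and -0.44 for stimulation of control cells. Between genotypes it was -0.49 in fresh cells, 0.31 in stimulated cells and -0.61 averaged over the 3 conditions. For the interactions it was 0.57 (stimulation) and -0.40 (culture). In the stimulation interaction the medians of highest and lowest GC content were 0.62 and -0.14. For stimulated against fresh cells Pearson's r was 0.17 in control and 0.52 in cKO cells. The medians of highest and lowest GC content were 0.19 and -0.15 for culture of control cells. For stimulated against fresh cKO cells they were 0.27 and -0.13. The GC slope of the libraries averaged 0.15 in unstimulated control and -0.13 in unstimulated cKO cells. It ran from 0.06 to 0.25 and from -0.19 to -0.07 in these groups, and from -0.03 to 0.15 in stimulated cKO cells. It thus did not overlap between the groups of the comparisons below. As it was computed from the same expression values, slope and group cannot be told apart. With that slope as a covariate, the median over members went from -0.18 to -0.04 between unstimulated genotypes and from 0.23 to 0.09 for stimulation of cKO cells. Mrpl57 went from -0.60 to -0.53 between the genotypes. Whether GC content caused any of these differences was not tested.

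**Figure D4:**
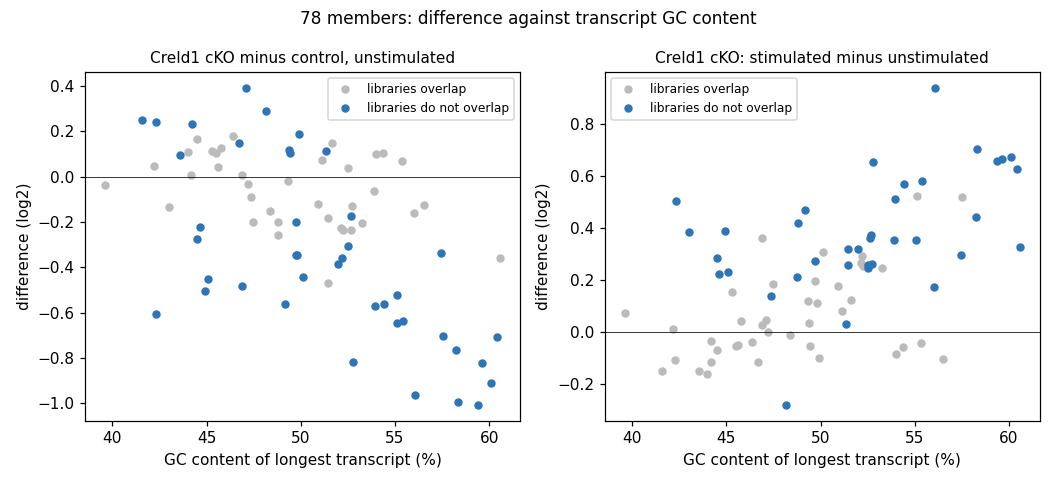
Log2 difference of each of the 78 members against the GC content of its longest transcript (percent), between genotypes in unstimulated culture (left) and for stimulation of Creld1 cKO cells (right); blue points are members whose libraries did not overlap. Members above 55% GC lie mostly below 0 on the left and above 0 on the right.

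The 3 Mrps18 paralogs, which occupy different sites of the ribosome, had culture differences in control cells of 0.15 (Mrps18a), -0.15 (Mrps18b) and -0.32 (Mrps18c), none past the threshold in limma. Mrps12, the counterpart of the bacterial protein where streptomycin resistance arises, had 0.02 in control and -0.18 in cKO cells. Mrpl58, a peptidyl-tRNA hydrolase within the ribosome, had 0.29 and 0.04. Mrpl45, which lines the exit of the tunnel towards the inner membrane, had -0.31 and -0.29 with unstimulated culture and fell by -0.39 ± 0.14 in stimulated against fresh cKO cells (adjusted p 0.0470). Exons of 23 members overlap those of another protein-coding gene, 20 of them one on the other strand, among them Mrps11 and Mrpl46, which overlap each other by 173 bases.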

How the data were processed

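RNA sequencing measured expression in 18 libraries, grouped by title and genotype from the labels. Per the labels' protocols, libraries were prepared from 10 ng of RNA with an unstranded TruSeq kit and sequenced as 75 bp single ends. The submitters' processing notes list CASAVA 1.8, HISAT2 2.1.0, SAMtools 1.4, Partek 6.6, DESeq2 and mm10 with no role. The authors deposited 1 normalized value per gene and library on a log2 scale; how they were transformed is not stated there, and the base was inferred from the values. Depth is unknown, so no counting interval was given.

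Genes were tested where 3 or more libraries reached 10 on the linear scale (10877 genes, 71.9%). A single limma 3.58.1 model (R 4.3.3) of 6 group means with a mean-variance trend, on 15.7 moderated degrees of freedom, gave two-sided p-values, Benjamini-Hochberg adjusted over all genes with a threshold of 0.05. The fit was tested on simulated data. GC content and exons came from GENCODE M21 (GRCm38) and promoters from RefSeq (GRCm38.p6). Members named were, per comparison, up to 5 largest rises and falls among called members without library overlap, the 3 of smallest p where fewer than 3 passed, the highest and lowest levels, and a fixed set (Mrps18a, Mrps18b, Mrps18c, Mrpl10, Mrpl12, Mrps12, Mrpl45, Mrpl58, Mrps36). Other genes named, among them Mrpl44 and Mrpl4, were chosen after their values were seen. The members and lists were chosen with earlier results of these data known. Alternatives covered filters, pseudocount, scaling, weights, a block, GC slope and each library left out. No sequence of the proteins was used.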

Additional observations from a re-analysis of the deposited data

How the results depend on the processing

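Of the 52 named member differences, 0 reversed under any of the alternatives, while 108 single settings lost a call and 55 gained one. Counts of members called moved more. Leaving out 1 library at a time gave, for culture, 2 to 6 higher and 3 to 8 lower in control cells and 1 to 1 higher and 8 to 12 lower in cKO cells. For stimulated against fresh cells it gave 0 to 1 higher and 1 to 3 lower in control cells, and 1 to 22 higher and 3 to 10 lower in cKO cells. For the comparisons with 0 calls it gave up to 2 higher for stimulation of cKO cells, up to 4 lower between fresh genotypes, up to 1 higher and 22 lower between unstimulated genotypes, up to 8 lower for the averaged genotype and up to 8 higher for the stimulation interaction. In these last 5 the highest count came without cKO fresh replicate 3.

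Library weights moved the counts most. The planned estimation stopped before it converged, so a gene-by-gene estimation was added after the counts of the first had been seen; both are given, the planned one first. Stimulation gave 26 and 8 higher and 23 and 5 lower in control cells, and 41 and 40 higher and 4 and 4 lower in cKO cells. Culture gave 14 and 9 higher and 14 and 12 lower in control cells; in cKO cells gene-by-gene weights gave 5 higher and 20 lower. Stimulated against fresh gave 16 and 9 higher and 11 and 7 lower in control cells, 15 and 28 higher in cKO cells and, gene by gene, 19 lower. Between unstimulated genotypes they gave 12 and 8 higher and 39 and 34 lower, for the averaged genotype 3 and 9 higher and 14 and 24 lower, and for the stimulation interaction 36 and 34 higher and 15 and 10 lower. The planned weights gave 7 higher and 5 lower between stimulated genotypes; gene-by-gene weights gave 12 higher and 21 lower between fresh genotypes and 1 lower for the culture interaction.

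Fitting only the groups compared gave 21 higher for stimulation of cKO cells, 0 higher and 4 lower for culture of cKO cells, 0 higher and 1 lower for stimulated against fresh in each genotype, 2 higher and 24 lower between unstimulated genotypes, and 13 higher and 1 lower for the stimulation interaction. The GC slope as a covariate gave 1 higher for stimulation of control cells, 8 lower for culture of control cells, 2 higher and 17 lower for culture of cKO cells, and 6 higher (control) and 2 higher (cKO) for stimulated against fresh. Without a filter and with median centring, 2 were higher for stimulated against fresh in cKO cells, and quantile normalization gave 2 higher in control cells.

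The numbers in the library titles form 3 consecutive runs, used as the replicate block. They were not taken as a pairing, since not every pair of libraries within a run correlated above 0.1 in its deviations from the group means. In run 1, 12 of 15 pairs did (median r 0.51, lowest 0.03), in run 2, 7 of 15 (median 0.09) and in run 3, 6 of 15 (median 0.04). The replicate block gave 2 higher for stimulated against fresh in control cells and 7 lower between unstimulated genotypes. The replicate block with the GC slope gave 1 higher for stimulation of control cells, 2 higher and 17 lower for culture of cKO cells, 7 higher and 5 lower for stimulated against fresh in control cells and 2 higher in cKO cells. The cause of these shifts was not tested. Depth is unknown, so it could not be set against the size of any difference.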
